A study of Cricetulus griseus with 5 samples.

Results

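Solute carriers are membrane proteins that move metabolites across lipid bilayers. The carriers described here fall into a mitochondrial group, the symbols Slc25a followed by a number, and a plasma membrane group of amino acid and transmitter carriers, the symbols Slc1a, Slc3a, Slc6a, Slc7a, Slc36a or Slc38a followed by a number. With earlier results of these data known, members were chosen by symbol. They were taken among array features (called probes here) that the platform annotation pairs with a single mouse gene. This gave 43 probes for 42 mitochondrial carrier genes and 62 probes for 55 plasma membrane carrier genes, together 105 of the 20868 probes and 97 of the 16504 named genes. The pattern also took in Slc6a19os and Slc7a6os, opposite-strand neighbours that are not carriers by their names, and they are counted with the plasma membrane group. Of the fixed reference genes for these groups, the taurine transporter gene Slc6a6 had no probe.

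The arrays compare RNA of A23 cells with RNA of the same cells. A23 is a Chinese hamster fibroblast line without thymidine kinase activity, used as the recipient line of radiation hybrids, and according to the design text these hybridisations measure the power to detect ceQTLs acting in cis. All 5 two-colour arrays form 1 group (A23 vs A23), with total RNA carrying Cy5 in channel 1 and Cy3 in channel 2 throughout, and no treatment or genotype differs. The labels do not say whether replicates came from separate cultures or extracts, so the spread behind each p-value is that between hybridisations and may be purely technical. Hamster RNA was read with probes for mouse genes, and 85 of the 97 symbols occur in the hamster RefSeq gene table. A log ratio of a line against itself holds no expression level, so neither the carriers' abundance nor fibroblast markers could be checked. Replicate 2 was the widest array, with 19.3% of all probes beyond 1.5-fold, where the other arrays had 8.31% to 11.8%. Values are the deposited log ratios, read as log10. The logarithm's base and the direction of the ratio are unstated, so a sign has no dye attached to it and folds hold only under the log10 reading.

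Mitochondrial carriers of the Slc25 family sit in the inner mitochondrial membrane, with a few members in other organelles. They exchange nucleotides, phosphate, carboxylates, amino acids, cofactors and metals between matrix and cytosol. At the plasma membrane, Slc1, Slc6, Slc36 and Slc38 carriers couple the uptake of amino acids or transmitters to ion gradients. Slc7 proteins include cationic amino acid transporters and light chains that pair with an Slc3 heavy chain to reach the cell surface. Cultured fibroblasts take up glutamine, leucine and cystine through such carriers.

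With the same RNA in both channels, a ratio of 0 is implied where both dyes read a probe alike. After adjustment, a single carrier probe passed the test against 0. In limma's moderated test, adjusted over all 20868 probes, 1 of 43 mitochondrial and 0 of 62 plasma membrane carrier probes passed an adjusted p of 0.05, against 3.42% of all probes (1.41% positive and 2.0% negative). Under a robust fit the counts were the same, against 1.2% of all probes. The called probe was the mitochondrial citrate carrier gene Slc25a1, with a positive ratio. At an unadjusted p of 0.05 the counts were 13 of 43 and 18 of 62, against 27.3% of all probes, so both shares (30.2% and 29.0%) were near the background. That background itself lay far above what a threshold of 0.05 passes when all ratios are 0. Carrier probes without a call are therefore not shown to sit at 0. Cy5 was in channel 1 throughout, and the source of the background was not tested. The plasma membrane gene with the lowest adjusted p was Slc3a2 (limma adjusted p = 0.0609). With arrays weighted by their precision, the counts of calls were 2 of 43 mitochondrial and 6 of 62 plasma membrane probes, against 7.58% of all probes. The weights were 1.35, 0.657, 2.29, 0.869 and 0.565 on replicates 1 to 5, so replicate 3 counted most and replicate 5 least. With probes holding any exact 0 left out the counts of calls were 2 of 32 and 2 of 48, against 8.54% of the probes kept. Leaving out any single array, replicate 1, 2, 3, 4 or 5, left 0 calls in both groups, against 0.0192% to 0.302% of all probes. In these fits 9 to 12 mitochondrial and 14 to 17 plasma membrane probes had an unadjusted p under 0.05.

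Signs were spread over both groups. A positive mean was seen in 24 of 43 mitochondrial probes and 25 of 62 plasma membrane probes, against 51.3% of all probes, and a negative mean in 17 and 36, against 46.8%. All 5 arrays were positive for 10 mitochondrial and 8 plasma membrane probes, where the share of all probes was 13.0%. All 5 arrays were negative for 3 mitochondrial and 12 plasma membrane probes, where that share was 13.4%. The mean ratio went beyond 1.5-fold for 2 mitochondrial probes, Slc25a15 and Slc25a51, and for 5 plasma membrane probes of Slc7a1, Slc7a9, Slc1a2, Slc38a10 and Slc7a2, against 5.35% of all probes. None of these 7 passed limma's test. Slc1a2 and Slc7a2 passed with the arrays weighted, and Slc1a2 without probes holding an exact 0.

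**Figure D1:**
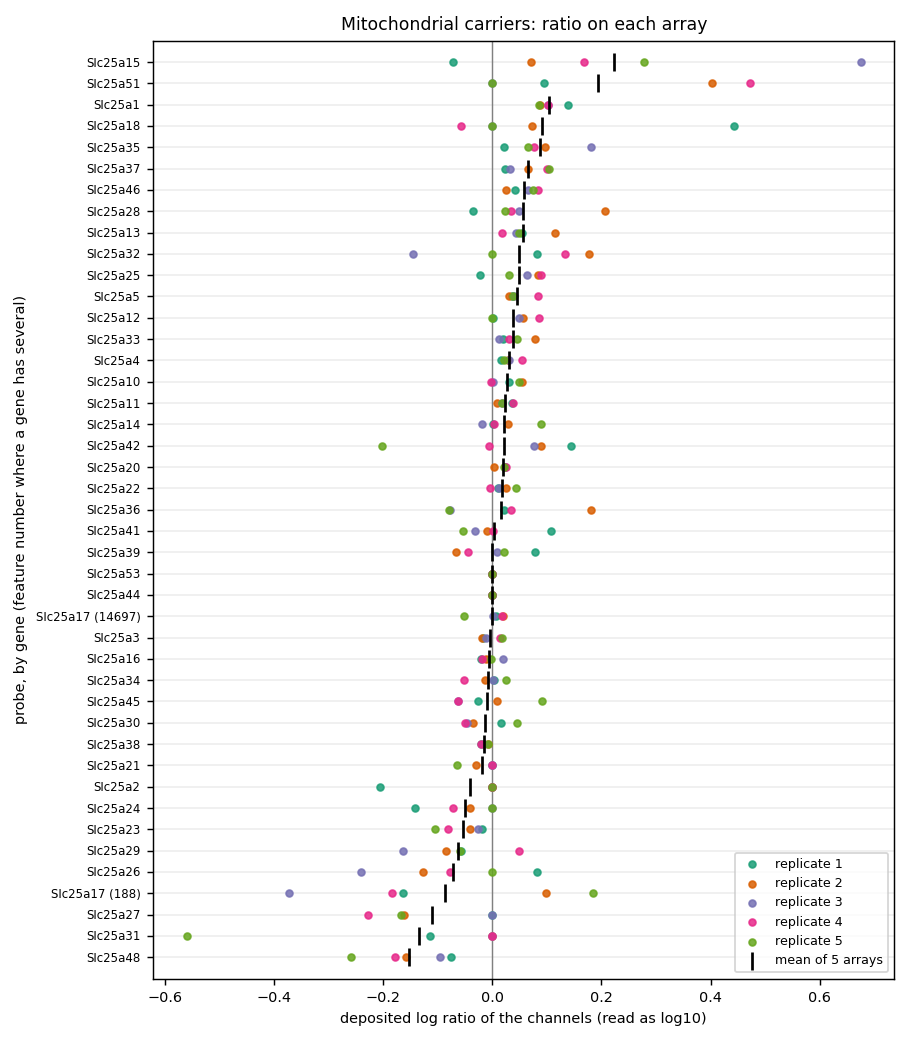
Log ratio (horizontal axis, deposited units read as log10) of each of the 43 mitochondrial carrier probes (rows, ordered by mean) on the 5 arrays (coloured points), with the mean of the arrays as a black tick. Most rows lie close to 0, Slc25a1 is positive on all 5 arrays with little spread, and Slc25a15, with the highest mean, reaches 0.675 on replicate 3 and is negative on replicate 1.

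Carriers of carboxylates and keto acids had the lowest spread among the mitochondrial subgroups with a role, and they held the 1 called gene. Slc25a1 exports citrate, the carbon source of cytosolic fatty acid and sterol synthesis. Its probe (feature 16311) read 0.139, 0.0876, 0.102, 0.103 and 0.0858 on replicates 1 to 5. All arrays were positive and replicate 1 was the highest. The mean was 0.103 ± 0.0215 (SD, n = 5), or 1.27-fold (1.07-fold under a log2 reading), and passed the test (limma adjusted p = 0.0288). The mean moved only between 0.0945 and 0.108 with an array left out, but the call was lost each time, with limma adjusted p from 0.0674 without replicate 5 to 0.13 without replicate 3. It was lost too against a minimum of 1.2-fold. Slc25a11, which exchanges oxoglutarate for malate, read 0.0354, 0.00857, 0.0171, 0.0389 and 0.0179, positive on all arrays at a mean of 0.0235 ± 0.013 (limma adjusted p = 0.151). The dicarboxylate carrier gene Slc25a10 stood at 0.0266 ± 0.0264 and the oxoadipate carrier gene Slc25a21, listed at exactly 0 on 3 arrays, at -0.0188 ± 0.0286.

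Adenine nucleotide and phosphate carriers, which supply ATP synthase and export its product, had means of both signs, none of which passed the test. Slc25a5, an ADP/ATP translocase of dividing cells, read 0.0359, 0.0302, 0.0394, 0.0844 and 0.0387, positive throughout with replicate 4 apart from the rest (mean 0.0457 ± 0.0219, SD, n = 5, limma adjusted p = 0.0827). Slc25a4, the translocase of heart and muscle, read 0.0156, 0.029, 0.0309, 0.0541 and 0.0221, also highest on replicate 4 (mean 0.0303 ± 0.0146, limma adjusted p = 0.11). The mitochondrial phosphate carrier gene Slc25a3 read -0.0168, -0.0194, -0.0123, 0.0142 and 0.0174. Its 3 negative and 2 positive values left a mean of -0.00337 ± 0.0177, smaller than the spread. Without replicate 2 that mean was 0.000627. The germ cell translocase gene Slc25a31 read -0.114 and -0.56 on replicates 1 and 5 and was listed at exactly 0 on the other arrays (mean -0.135 ± 0.243, limma adjusted p = 0.407). Over all 12 probes of nucleotide and phosphate carriers, 6 means were positive and 6 negative, with a median of 0.00104. The ATP-Mg/phosphate carriers went both ways, with Slc25a23 at -0.0542 ± 0.0371 and negative on all arrays, Slc25a24 at -0.0505 ± 0.0588, Slc25a41 at 0.00279 ± 0.0626 and Slc25a25 at 0.0487 ± 0.046. The pyrimidine nucleotide carriers Slc25a33 and Slc25a36 stood at 0.0372 ± 0.0263 and 0.0164 ± 0.107.

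Slc25a17, a carrier of peroxisomes, was the mitochondrial group's only gene with several probes. Feature 188 read -0.163, 0.0982, -0.373, -0.184 and 0.185, and feature 14697 read 0.00778, 0.0203, 0.00128, 0.0179 and -0.0508. The probes shared a negative sign of the mean only nominally, at -0.0872 ± 0.226 and -0.000706 ± 0.029 (SD, n = 5). The second was 0.0118 without replicate 5, and their SDs differed by far more than their means.

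Amino acid and acylcarnitine carriers included both tight and very loose probes. Slc25a13, the aspartate/glutamate exchanger citrin of the malate-aspartate shuttle, read 0.0544, 0.115, 0.0428, 0.0182 and 0.0484, positive on all arrays (mean 0.0559 ± 0.0361, SD, n = 5, limma adjusted p = 0.109). Its paralogue Slc25a12 read 0.00134, 0.0569, 0.0493, 0.0856 and -0.00103, close to 0 on replicates 1 and 5 (mean 0.0384 ± 0.0375). Slc25a20, the carnitine/acylcarnitine carrier of fatty acid oxidation, read 0.0235, 0.00237, 0.0233, 0.0247 and 0.0214, with replicate 2 apart from 4 nearly equal values. The glycine carrier gene Slc25a38 had the lowest SD among mitochondrial probes with nonzero values. It read -0.0207, -0.00796, -0.0143, -0.02 and -0.00821, negative on all arrays, and its mean of -0.0142 ± 0.00614 did not pass (limma adjusted p = 0.244). The ornithine carrier gene Slc25a15, of the urea cycle, read -0.0722, 0.0714, 0.675, 0.168 and 0.278. It had both the highest mean and the largest SD of the group, 0.224 ± 0.283 (limma adjusted p = 0.269). The branched-chain amino acid carrier gene Slc25a44 was listed at exactly 0 on all arrays. Of the glutamate carriers, Slc25a22 stood at 0.018 ± 0.018, and Slc25a18 at 0.0916 ± 0.201 with a value of 0.442 on replicate 1. Slc25a29, a carrier of basic amino acids, stood at -0.0632 ± 0.0764, and Slc25a2, an ornithine carrier, had a nonzero value of -0.206 on replicate 1 alone.

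Cofactor carriers had the widest spread of the mitochondrial subgroups, with a median between-array SD of 0.127 over 5 probes. Slc25a51, which carries NAD+ into mitochondria, read 0.094, 0.403, 0, 0.472 and 0, and its mean of 0.194 ± 0.227 (SD, n = 5, limma adjusted p = 0.243) rested on replicates 2 and 4. The folate carrier gene Slc25a32, the S-adenosylmethionine carrier gene Slc25a26 and the coenzyme A carrier gene Slc25a42 had SDs of 0.127, 0.123 and 0.136 and values of both signs. Slc25a16 was the exception at -0.00683 ± 0.0163. The iron importer mitoferrin, Slc25a37, read 0.023, 0.0657, 0.0319, 0.0995 and 0.103, positive on all arrays (mean 0.0647 ± 0.0371, limma adjusted p = 0.0909). Its paralogue Slc25a28 stood at 0.0559 ± 0.0901 and the glutathione carrier gene Slc25a39 at 7.43e-05 ± 0.0569. Among carriers related to uncoupling proteins, Slc25a27 read 0, -0.161, 0, -0.227 and -0.168 (mean -0.111 ± 0.105, limma adjusted p = 0.178), while Slc25a30 and Slc25a14 stood at -0.0141 ± 0.0424 and 0.0209 ± 0.0419.

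The 6 Slc25 members that were assigned no role held the lowest mean of the group. Slc25a48 read -0.0762, -0.158, -0.0951, -0.179 and -0.259, negative on all arrays at -0.153 ± 0.0727 (SD, n = 5, limma adjusted p = 0.0637), and it passed when probes with any exact 0 were left out (limma adjusted p = 0.04). Slc25a46, a protein of the outer mitochondrial membrane, was positive on all arrays at 0.0582 ± 0.0243 (limma adjusted p = 0.0644) and passed with the arrays weighted (limma adjusted p = 0.04). Slc25a35 was positive on all arrays too, from 0.0212 to 0.18, at 0.0882 ± 0.0584. Slc25a53 was listed at exactly 0 on all arrays, and Slc25a34 and Slc25a45 stood at -0.00739 ± 0.0289 and -0.0104 ± 0.0642.

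**Figure D2:**
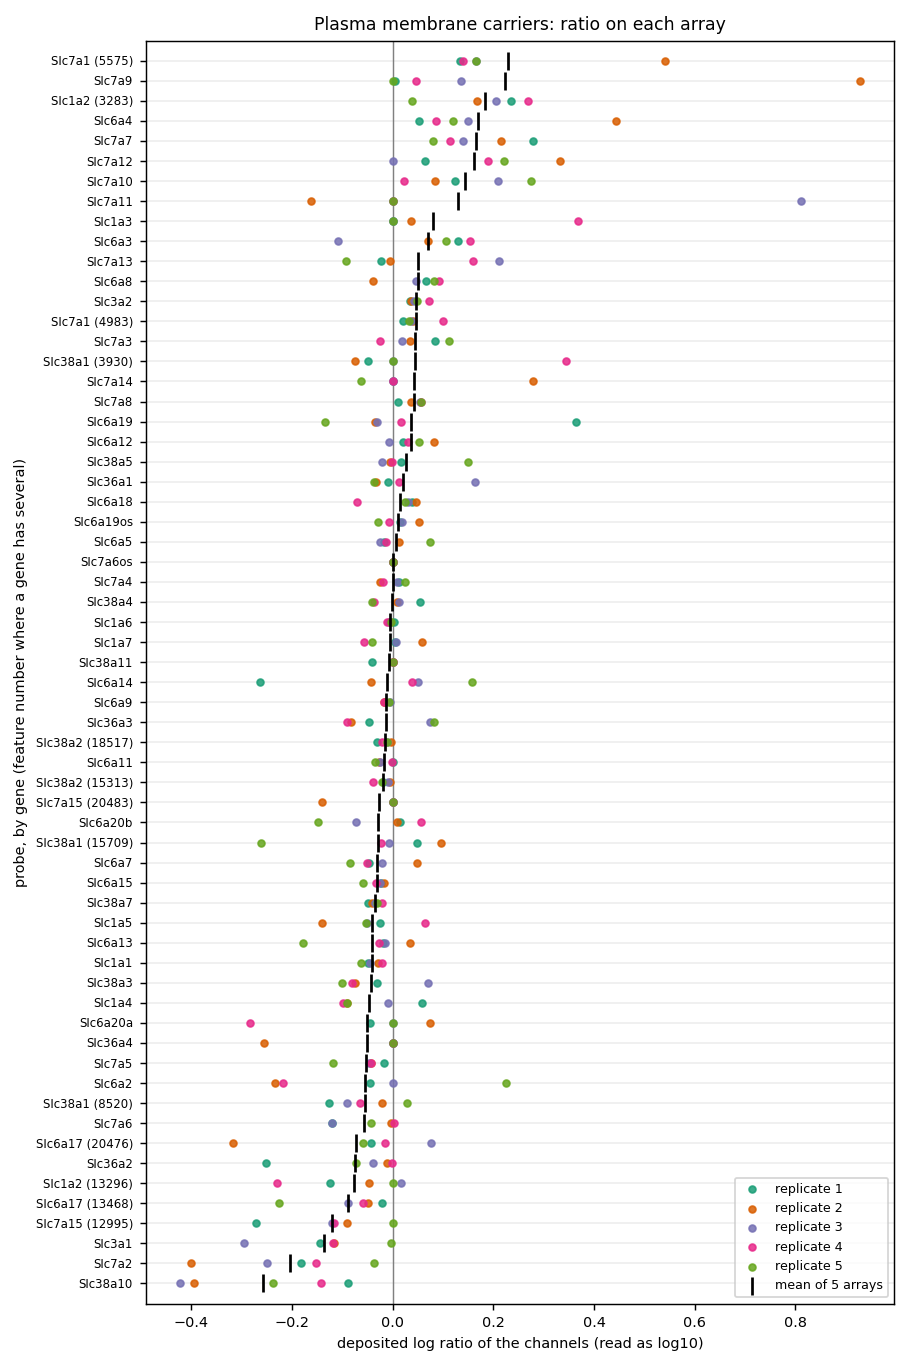
Log ratio (horizontal axis, deposited units read as log10) of each of the 62 plasma membrane carrier probes (rows, ordered by mean) on the 5 arrays (coloured points), with the mean of the arrays as a black tick. Single arrays reach 0.929 for Slc7a9 on replicate 2 and 0.811 for Slc7a11 on replicate 3, while Slc38a10, with the lowest mean, is negative on all 5 arrays.

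The heavy chains, which bring Slc7 light chains to the cell surface, had ratios of opposite sign. Slc3a2, the heavy chain CD98 found in most dividing cells, read 0.0346, 0.0355, 0.043, 0.0726 and 0.0483. All arrays were positive and close together, at 0.0468 ± 0.0155 (SD, n = 5), or 1.11-fold. It missed the threshold (limma adjusted p = 0.0609) and passed with the arrays weighted (limma adjusted p = 0.0421). Slc3a1, the heavy chain of kidney and intestine, read -0.145, -0.116, -0.296, -0.119 and -0.00297, negative on all arrays but near 0 on replicate 5 (mean -0.136 ± 0.105, limma adjusted p = 0.129).

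The light chains had means of both signs, and none of them passed limma's test as planned. Slc7a5, the large neutral amino acid exchanger that pairs with Slc3a2, read -0.0165, -0.0438, -0.0482, -0.0423 and -0.119, negative on all arrays (mean -0.054 ± 0.0385, SD, n = 5, limma adjusted p = 0.127). Slc7a8, a light chain of the same kind, was positive on all arrays, from 0.0102 to 0.057 (mean 0.0428 ± 0.0203, limma adjusted p = 0.0848). Slc7a7, which exports cationic amino acids, was positive on all arrays too, from 0.0805 to 0.279. Its mean of 0.166 ± 0.0805 (limma adjusted p = 0.0646) passed with the arrays weighted (limma adjusted p = 0.0446) and without probes holding an exact 0 (limma adjusted p = 0.0409). Slc7a10, a small neutral amino acid transporter, stood at 0.143 ± 0.101, and Slc7a6 at -0.0569 ± 0.0608. The light chain of Slc3a1, Slc7a9, a transporter of cystine and basic amino acids, read 0.00473, 0.929, 0.136, 0.0468 and 0. Its mean of 0.223 ± 0.398 was mostly replicate 2, and its SD was the largest of the group. Slc7a11, the cystine/glutamate exchanger that feeds glutathione synthesis, read 0, -0.163, 0.811, 0 and 0, and its mean of 0.13 ± 0.387 turned to -0.0406 without replicate 3. Of the other light chains, Slc7a12 stood at 0.161 ± 0.131 and Slc7a13 at 0.0497 ± 0.129. For Slc7a15, feature 12995 read -0.272, -0.0906, -0.12, -0.118 and 0, at -0.12 ± 0.0978. Its feature 20483 read -0.141 on replicate 2 and exactly 0 on the other arrays, at -0.0281 ± 0.0629.

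Among cationic amino acid transporters, which import arginine and lysine, Slc7a1 had positive ratios on both probes. Feature 4983 read 0.0194, 0.0408, 0.0359, 0.100 and 0.0316, and feature 5575 read 0.133, 0.541, 0.164, 0.14 and 0.165. No array was negative on either probe, and the probes differed in size, at 0.0456 ± 0.0316 and 0.229 ± 0.175 (SD, n = 5, limma adjusted p = 0.127 for each). Slc7a2, inducible in macrophages and liver, read -0.183, -0.401, -0.25, -0.153 and -0.038, negative on all arrays at -0.205 ± 0.134, or 1.6-fold (limma adjusted p = 0.0986), and passed with the arrays weighted (limma adjusted p = 0.0483). Slc7a3, Slc7a4 and Slc7a14 stood at 0.0443 ± 0.0542, -0.000279 ± 0.0216 and 0.043 ± 0.135. Over the Slc7 family 11 of 18 means were positive (61.1%, against 51.3% of all probes), with a median of 0.0437. These 18 probes stand for 16 symbols, with 2 probes each for Slc7a1 and Slc7a15, and they include the opposite-strand gene Slc7a6os. An exact 0 was listed on at least 1 array for 7 of the 18 (38.9%, against 25.7% of all probes). At an unadjusted p of 0.05 there were 9 of 18 probes (50.0%, against 27.3%), which was not tested.

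Sodium-coupled neutral amino acid transporters of the Slc38 family had negative means on 9 of 11 probes (81.8%, against 46.8% of all probes), with a median of -0.0194, which was not tested. The 11 probes stand for only 8 genes, with 3 probes for Slc38a1 and 2 for Slc38a2. The negative mean of Slc38a11 came with exact zeros on 4 arrays. Slc38a10 had the lowest mean of either group. It read -0.0894, -0.394, -0.423, -0.142 and -0.238, negative on all arrays at -0.257 ± 0.149 (SD, n = 5), or 1.81-fold, and missed the threshold (limma adjusted p = 0.0807). The glutamine transporter gene Slc38a2, induced by amino acid starvation, had probes that matched closely. Feature 15313 read -0.0199, -0.00615, -0.00959, -0.0401 and -0.0214 and feature 18517 read -0.0318, -0.00304, -0.012, -0.0212 and -0.011, all negative, at -0.0194 ± 0.0133 and -0.0158 ± 0.011 (limma adjusted p = 0.207 and 0.253). The related glutamine transporter gene Slc38a1 had 3 probes that did not match. Feature 8520 read -0.127, -0.0212, -0.0901, -0.0652 and 0.0285 (mean -0.055 ± 0.0605). Feature 15709 read 0.0491, 0.096, -0.00734, -0.024 and -0.261 (mean -0.0295 ± 0.138, and 0.0284 without replicate 5). Feature 3930 read -0.0494, -0.0758, 0, 0.344 and 0 (mean 0.0437 ± 0.171, and -0.0313 without replicate 4). No sign can be given to Slc38a1 from these probes. Slc38a7, a lysosomal glutamine exporter, was negative on all arrays within a narrow range, from -0.05 to -0.022 (mean -0.0363 ± 0.0106, limma adjusted p = 0.0694), and passed with the arrays weighted (limma adjusted p = 0.0453). The other members Slc38a3, Slc38a4, Slc38a5 and Slc38a11 had means from -0.0434 to 0.0269.

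Glutamate transporters of the Slc1 family clear the transmitter around synapses. Slc1a2, the main glutamate transporter of astrocytes, had probes of opposite sign. Feature 3283 read 0.235, 0.167, 0.206, 0.268 and 0.0391, positive on all arrays at 0.183 ± 0.0886 (SD, n = 5, limma adjusted p = 0.0644). Feature 13296 read -0.125, -0.0466, 0.0164, -0.23 and 0, at -0.0769 ± 0.101 (limma adjusted p = 0.289). The first passed with the arrays weighted (limma adjusted p = 0.0301) and without probes holding an exact 0 (limma adjusted p = 0.0402). The second did not pass with the arrays weighted, and its exact 0 on replicate 5 kept it out of the other fit. Slc1a3, the other astrocyte transporter, read 0.036 and 0.368 on replicates 2 and 4 and exactly 0 elsewhere. Slc1a6, of Purkinje cells, had the lowest SD of the plasma membrane probes with nonzero values, reading 0.00225, -0.00479, -0.00752, -0.0117 and -0.00451. Slc1a1, the neuronal and epithelial transporter, was negative on all arrays, from -0.0638 to -0.0216 (mean -0.0419 ± 0.0167, limma adjusted p = 0.0737), and passed with the arrays weighted (limma adjusted p = 0.0441). Slc1a7 stood at -0.00561 ± 0.0452. The neutral amino acid exchangers had means near each other, with values of both signs. Slc1a5, a major route of glutamine into proliferating cells, read -0.0259, -0.14, -0.0514, 0.0646 and -0.0525 (mean -0.0411 ± 0.0733). Slc1a4 read 0.0583, -0.0904, -0.00981, -0.0985 and -0.0917 (mean -0.0464 ± 0.0689).

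The Slc6 family holds the transporters of monoamines, GABA, glycine and creatine, many of them known from neurons or epithelia. Monoamine transporters were loose, with a median SD of 0.157 over 3 probes. The serotonin transporter gene Slc6a4 read 0.0522, 0.443, 0.15, 0.0857 and 0.119, positive on all arrays with replicate 2 far above the others (mean 0.17 ± 0.157, SD, n = 5, limma adjusted p = 0.171). The dopamine transporter gene Slc6a3 read 0.129, 0.0706, -0.109, 0.153 and 0.106 (mean 0.0702 ± 0.104), and the noradrenaline transporter gene Slc6a2 stood at -0.0546 ± 0.187. The glycine transporter gene Slc6a9 was tight, reading -0.0152, -0.0169, -0.00504, -0.018 and -0.00845, negative on all arrays (mean -0.0127 ± 0.00568, limma adjusted p = 0.281). The epithelial neutral amino acid transporter gene Slc6a19 read 0.363, -0.0355, -0.0312, 0.0164 and -0.134, and its mean of 0.0359 ± 0.191 was -0.046 without replicate 1. Slc6a17, a vesicular amino acid transporter of neurons, had negative means on both probes, which read -0.0207, -0.0493, -0.0894, -0.0587 and -0.226 (feature 13468) and -0.0441, -0.318, 0.0763, -0.0159 and -0.0591 (feature 20476). The other Slc6 amino acid transporters had means from -0.0511 for Slc6a20a to 0.0142 for Slc6a18. The transporters of GABA, betaine and creatine had means from -0.0414 for Slc6a13 to 0.0496 for the creatine transporter gene Slc6a8. The opposite-strand gene Slc6a19os stood at 0.01 ± 0.0303 and Slc7a6os was listed at exactly 0 on all arrays.

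Proton-coupled transporters of the Slc36 family export amino acids from lysosomes or take them up at the cell surface. Slc36a1 read -0.00905, -0.0338, 0.163, 0.0131 and -0.0364, and its mean of 0.0194 ± 0.0829 (SD, n = 5) was -0.0165 without replicate 3. Slc36a4 had a single nonzero value, -0.256 on replicate 2. Slc36a2 was negative on all arrays, from -0.252 to -0.00239, at -0.0755 ± 0.102, and Slc36a3 stood at -0.0132 ± 0.0849. None of the 4 had an unadjusted p under 0.05 in limma.

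As groups, the carriers were set side by side without a test, since the members were chosen with earlier results of these data known. The median of the mean ratios was 0.0164 for mitochondrial and -0.0102 for plasma membrane carriers, against 0.00187 for all probes. The mitochondrial median per array was 0.00778, 0.0203, 0, 0.00163 and 0.0174 on replicates 1 to 5, and the plasma membrane median was 0, -0.00577, 0, -0.00482 and 0. The mitochondrial median was the higher on 4 arrays and both were 0 on replicate 3, with a difference of 0.0115 ± 0.0102 (SD, n = 5). Over the means of all arrays the difference was 0.0266, and it was 0.0101 without replicate 1 and 0.0107 without replicate 2. The group medians also rested on single arrays. The mitochondrial one was 0 without replicate 1 and 0.00575 without replicate 2, and 0.00681 with arrays scaled to the same spread. The plasma membrane one was -0.00492 without replicate 2, -0.0162 without replicate 3 and -0.00681 without replicate 5, and -0.00561 with probes of a gene averaged. Within an array the interquartile range was 0.0653 ± 0.0193 for mitochondrial and 0.0829 ± 0.0159 for plasma membrane carriers, and 0.0838 ± 0.0167 for all probes.

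**Figure D3:**
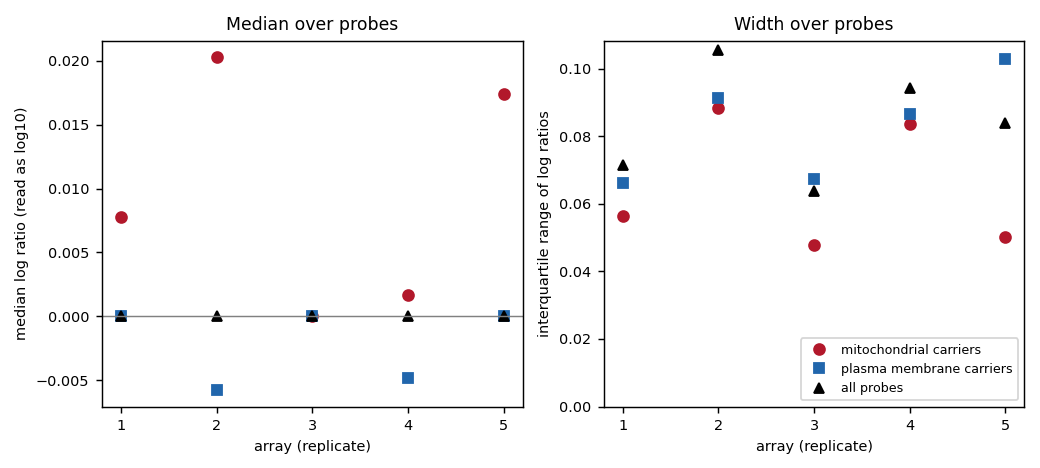
Median (left) and interquartile range (right) of the log ratios of mitochondrial carriers (43 probes), plasma membrane carriers (62 probes) and all 20868 probes on each array (horizontal axis, replicates 1 to 5), in deposited units read as log10. The mitochondrial median reaches 0.0203 on replicate 2, all medians are 0 on replicate 3, and the mitochondrial interquartile range is below the plasma membrane one on each array.

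Arrays differed less in mitochondrial than in plasma membrane carriers. Across arrays the median SD was 0.0419 for mitochondrial and 0.0768 for plasma membrane carriers, 1.83 times as much, with 0.0588 over all probes. By family the median SD was 0.0603 for Slc3, 0.0605 for Slc38, 0.0711 for Slc1, 0.0804 for Slc6, 0.0892 for Slc7 and 0.0936 for Slc36, so each plasma membrane family lay above Slc25. With any array left out the mitochondrial median stayed between 0.0347 and 0.0429 and the plasma membrane median between 0.0615 and 0.0723. With probes holding any exact 0 left out the medians were 0.0371 and 0.0648. The difference was not tested. Ratios beyond 1.5-fold made up 8.84% ± 2.55 (SD, n = 5) of the mitochondrial and 12.6% ± 2.89 of the plasma membrane values of an array, against 11.7% ± 4.43 of all probes, a spread that takes in both. The 13 probes whose symbol was not found in the hamster gene table had a median SD of 0.0978, against 0.0531 for the other 92, and 11 of the 13 were plasma membrane carriers. Among probes with a hamster symbol the median SD was 0.0375 for the 41 mitochondrial and 0.0688 for the 51 plasma membrane ones. The part of the hamster symbol in the difference was not tested.

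**Figure D4:**
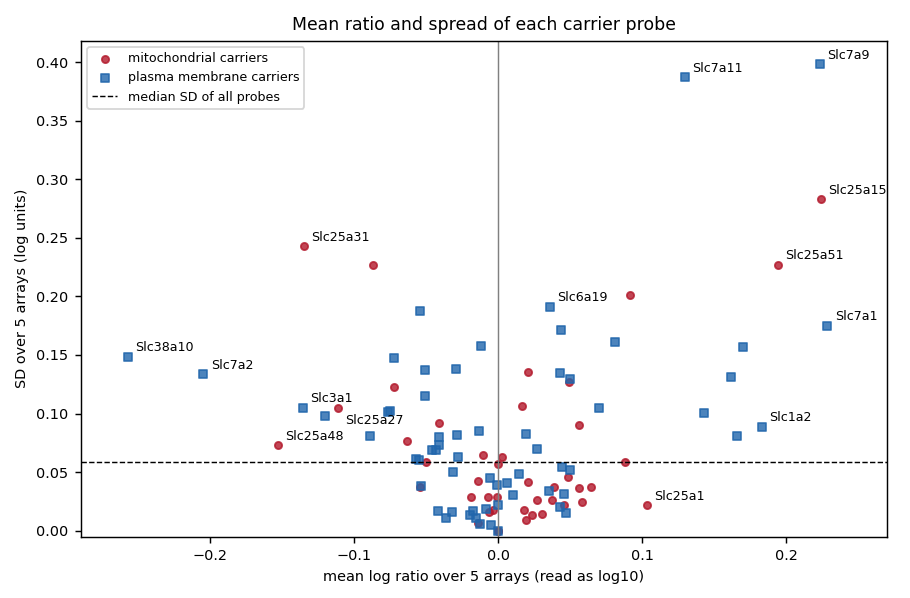
Mean log ratio over the 5 arrays (horizontal axis) against the SD over the arrays (vertical axis) for each mitochondrial (circles) and plasma membrane (squares) carrier probe, in deposited units read as log10, with the median SD of all probes, 0.0588, as a dashed line. Slc25a1 combines a mean of 0.103 with an SD of 0.0215, while the probes with larger means, such as Slc7a9 and Slc25a15, have SDs of 0.398 and 0.283.

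These spreads set the smallest change that 5 such arrays could detect for each carrier. In a two-sided test of a single probe, with a power of 0.8 at an alpha of 0.05 before adjustment, the median detectable fold was 1.18 over the 41 mitochondrial and 1.37 over the 61 plasma membrane probes with a nonzero SD, and 1.26 over all probes, if the values are log10. Read as log2, the medians were 1.05 and 1.10. A fold under 1.2 was detectable for 22 of 41 mitochondrial and 19 of 61 plasma membrane probes, against 40.8% of all probes. More than 1.5-fold was needed for 10 and 19 of them, against 28.5%. Listed zeros entered these SDs unless a probe was at 0 on all arrays. Thus Slc38a11, at exactly 0 on 4 arrays, had a fold of 1.08. The carboxylate carrier gene Slc25a21, at exactly 0 on 3 arrays, had 1.12. Such folds are not measures of precision alone. By subgroup the median ran from 1.10 for carboxylate carriers to 1.84 for monoamine transporters. The single probes with the highest values were Slc7a9 at 4.68 and Slc7a11 at 4.48, against 1.09 for Slc25a1 and 1.06 for Slc3a2.

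**Figure D5:**
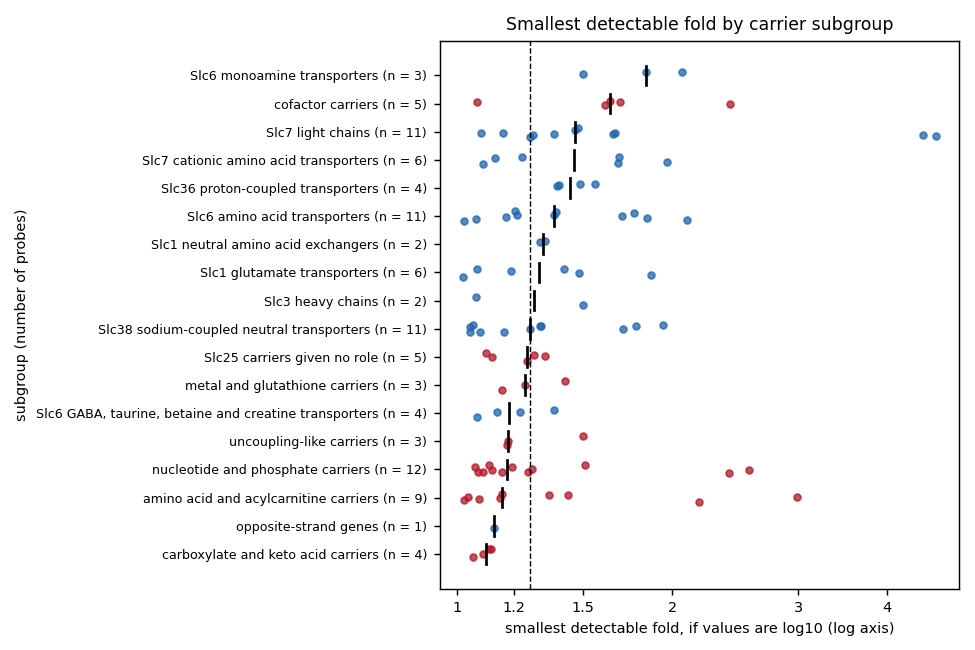
Smallest detectable fold (horizontal axis, log scale, if the values are log10) of each carrier probe by subgroup (rows, with the number of probes drawn), red for mitochondrial and blue for plasma membrane carriers, with the subgroup's median as a black bar and the median of all probes, 1.26, as a dashed line. Probes listed at 0 on all arrays are not drawn. The carboxylate carriers lie below 1.2, and Slc7a9 and Slc7a11 lie above 4.

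Exact zeros, for which no source used here gives a reason, occurred in both groups. An exact 0 on at least 1 array was listed for 11 of 43 mitochondrial and 14 of 62 plasma membrane probes, against 25.7% of all probes. Slc25a44, Slc25a53 and Slc7a6os were at 0 on all 5 arrays, against 1.97% of all probes. For such probes the mean and SD of 0 are listed values, and whether a measured ratio lies behind them is unknown. By family the share with an exact 0 was 7 of 18 probes for Slc7 and 2 of 19 for Slc6.

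Related genes under other names were looked up in the same fit. Of 12 symbols of uncoupling proteins, pyruvate carriers and outer membrane pores, 8 had a probe, and 1 was called, where the share of all probes was 3.42%. It was the uncoupling protein gene Ucp3, of muscle, at -0.248 ± 0.0981 (SD, n = 5, limma adjusted p = 0.0497). The pore gene Vdac2 stood at 0.0536 ± 0.0242 (limma adjusted p = 0.0719). Of 13 amino acid, peptide and transmitter carriers of other families 12 had a probe and 0 were called by limma (3.42% of all probes), 1 of them with an unadjusted p under 0.05 (27.3% of all probes). Of 16 genes of the response to amino acid shortage, which raises several of the carriers above, 15 had a probe and 2 were called (3.42% of all probes). The transcription factor gene Cebpb and the growth regulator gene Ddit4 were called, at 0.0839 ± 0.0277 and 0.0698 ± 0.0236 (limma adjusted p = 0.0481 and 0.0499). The main transcription factor of that response, Atf4, was negative on all arrays at -0.0723 ± 0.0279 (limma adjusted p = 0.0558), and it passed after quantile normalization, with arrays scaled and without probes holding an exact 0. Atf5, of the same list, was positive on all arrays at 0.0651 ± 0.0263 (limma adjusted p = 0.0609). Atf4 and Atf5 were chosen for mention after their values were seen. Without any single array the calls of Ucp3, Cebpb and Ddit4 were lost, with limma adjusted p from 0.0709 to 0.152, and they were lost under the robust fit too (0.0628, 0.0632 and 0.0675). They were also lost against a minimum of 1.2-fold and without probes at 0 on all arrays. Cebpb and Ddit4, but not Ucp3, were lost after quantile normalization (limma adjusted p = 0.0596 and 0.0577) and with exact zeros as missing (0.0513 and 0.0603). All of these calls were kept with arrays scaled or weighted and without probes holding an exact 0. The median over the 15 probes was 0.00772, with 8 positive and 7 negative means. Of the 15, 5 had an unadjusted p under 0.05 in limma (27.3% of all probes), 4 with a positive and 1 with a negative mean.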

How the data were processed

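The authors deposited 1 log ratio of the channels per probe and array. Image quantification, background correction and dye normalization by the authors are not given in the sources used here. A log10 scale was assumed for the deposited ratios, whose exact zeros and median of 0 per array have the form of Agilent's log ratio column; log2 was the alternative. The number of arrays limits the precision. Genes were named from the platform's annotation, and mouse genome positions were not used here.

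After conversion to log2, an intercept was fitted to all 20868 probes (limma 3.58.1, R 4.3.3), with Benjamini-Hochberg adjustment over all of them and a threshold of 0.05. The fit was run on simulated normal noise around 0 with shifts added to some probes. All other simulated probes were centred on 0, so the run does not show how the fit behaves on these arrays. Members and lists were chosen with earlier results of these data known. Members were given array by array if they passed, had the 3 highest or lowest means or the 3 largest or smallest SDs of their group, belonged to a gene with several probes, or were on a list of reference genes. Other members were chosen for mention after their values were seen. The alternatives run were quantile normalization, scaling, array weights, a robust fit, a minimum of 1.2-fold, exact zeros as missing, gene averages and leaving out arrays. Leaving out probes with exact zeros, or the opposite-strand genes, was added after seeing the data.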

Additional observations from a re-analysis of the deposited data

Results flagged for a closer look

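On 22 of the 105 carrier probes, 6 mitochondrial and 16 plasma membrane, 1 array lay far from the other 4 by Dixon's criterion, which chance alone meets in about 1 in 20 groups. The same held for 13.9% of all 20868 probes, so the 6 of 43 mitochondrial carriers were near that share and the 16 of 62 plasma membrane carriers (25.8%) above it. Among probes without an exact 0 the shares were 9.02% of all probes, 9.38% of mitochondrial and 16.7% of plasma membrane carriers, and the differences were not tested. Replicate 2 was the distant array on 7 of the 22 carrier probes, and 11 of the 22 held an exact 0. Among mitochondrial carriers the distant values were 0.442 for Slc25a18 and -0.206 for Slc25a2 on replicate 1, 0.00237 for Slc25a20 on replicate 2, 0.0844 for Slc25a5 on replicate 4, and -0.0508 for Slc25a17 (feature 14697) and -0.56 for Slc25a31 on replicate 5. Among plasma membrane carriers replicate 2 gave 0.929 for Slc7a9, 0.541 for Slc7a1 (feature 5575), 0.443 for Slc6a4, 0.279 for Slc7a14, -0.256 for Slc36a4 and -0.141 for Slc7a15 (feature 20483). Replicate 1 gave -0.252 for Slc36a2 and -0.0421 for Slc38a11, and replicate 3 gave 0.811 for Slc7a11 and 0.163 for Slc36a1. Replicate 4 gave 0.368 for Slc1a3, 0.344 for Slc38a1 (feature 3930), 0.100 for Slc7a1 (feature 4983) and -0.0706 for Slc6a18. Replicate 5 gave 0.15 for Slc38a5 and -0.179 for Slc6a13.

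Shares of carrier probes with large ratios also had a distant array. Beyond 2-fold lay 4.65% of mitochondrial carriers on replicate 3, where every other array had 2.33%, a difference of a single probe. On replicate 2, 17.7% of plasma membrane carriers lay beyond 1.5-fold and 11.3% beyond 2-fold, against 11.3% beyond 1.5-fold on every other array, and replicate 2 was also the widest array over all probes (19.3% beyond 1.5-fold). What sets it apart was not tested.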

How the results depend on the processing

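Counts of called carriers moved with the setting, and so did the share of all probes called, from 0.0192% to 0.302% with an array left out, through 1.2% with a robust fit, 3.42% as planned and 7.58% with array weights, to 8.54% without probes holding an exact 0. Mitochondrial carriers had 1 call as planned, 2 with array weights, 2 without probes holding an exact 0, 0 against a minimum of 1.2-fold, and 0 to 0 with an array left out; plasma membrane carriers had 0, 6 and 2 in the first 3 of these and 0 to 0 with an array left out. The fit without probes at 0 on all arrays kept Slc25a1 alone, with a limma adjusted p of 0.0392. Without an array the median ratio was 0 to 0.0118 for mitochondrial and -0.0162 to -0.00492 for plasma membrane carriers, their difference 0.0101 to 0.0278 (0.0266 with all arrays), and the median SDs 0.0347 to 0.0429 and 0.0615 to 0.0723. With scaled arrays the mitochondrial median was 0.00681 and the difference 0.0147, and gene averages gave -0.00561 for the plasma membrane median. The plasma membrane SD was 0.0648 without probes holding an exact 0. Of 50 probes given array by array, 7 changed the sign of their mean under at least 1 setting, none of them called. Each log ratio already pairs the channels of an array. No pairing between arrays was possible because all 5 arrays form 1 group. Signal over background is not in the deposited table, so the brightness behind each ratio is unknown.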
